A study of Zea mays with 6 samples.

Results

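Genes of photorespiration and one-carbon metabolism were followed in maize (Zea mays) leaves under different soil water regimes. They were taken from the deposited expression table by words in the gene name or description (glycolate, hydroxyacid oxidase, glycine decarboxylase, glycine cleavage, serine hydroxymethyltransferase, hydroxypyruvate, glyoxylate, glycerate, folate, catalase and close variants, without phosphoglycerate), which gave 61 of 45953 features. Of these, 49 had enough counts to be tested, 8 had no count in any library, and the other 4 had a mean of at most 0.123 FPKM (fragments scaled by transcript length and library size). The LW group held 3 libraries from plants labelled as under drought with continuous water by negative pressure, a form of irrigation that lets dry soil pull water out of a closed source kept under suction. The CW group held 3 libraries from moist soil under drip irrigation, so the irrigation method and the soil water differed together. All libraries came from leaf; the labels name no cultivar, plant age or time of harvest.

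Photorespiration starts when Rubisco fixes oxygen in place of carbon dioxide and forms phosphoglycolate. Phosphoglycolate phosphatase frees glycolate in the chloroplast, a translocator exports it, glycolate oxidase turns it into glyoxylate in the peroxisome, and catalase removes the hydrogen peroxide made there. Aminotransferases form glycine, the mitochondrial glycine decarboxylase complex and serine hydroxymethyltransferase join glycine molecules into serine while releasing carbon dioxide and ammonia, and hydroxypyruvate reductase and glycerate kinase return the carbon to the Calvin cycle. Glycine decarboxylase and serine hydroxymethyltransferase pass their carbon through folate, the carrier of one-carbon units. In maize, a C4 plant, Rubisco and glycine decarboxylase sit mainly in the bundle sheath, where carbon dioxide is concentrated, and the flux through the cycle is low.

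Genes for the cycle's chloroplast translocator, glycine cleavage H protein, serine--glyoxylate aminotransferase and peroxisomal reductase fell in LW. By the quasi-likelihood test of edgeR, with p adjusted by Benjamini-Hochberg across the 24704 tested genes, 5 of the 49 tested members fell in LW (10.2%) and 1 rose (2.04%); over all tested genes 2.40% fell and 2.84% rose. The 5 were the plastidal glycolate/glycerate translocator 1, a pair of serine--glyoxylate aminotransferases, glycine cleavage protein H1 and the peroxisomal hydroxypyruvate reductase HPR. The 1 that rose was named for a mitochondrial alanine--glyoxylate aminotransferase and was listed at 0 in every CW library. Of the 49, 34 had a negative log2 fold change (69.4%, beside 47.4% of all tested genes). The median over the 49 was -0.33, against 0.06 over all tested genes. With libraries scaled by their totals alone both medians were higher, at 0.03 for the members and 0.42 for all genes, and the same 5 falls and 1 rise were called (1.40% of all genes fell and 5.77% rose). The same genes were also called by limma on log2(FPKM + 1), with 2.25% of all genes lower and 9.78% higher. At least 2-fold lower in LW were 9 members (18.4%; 13.0% of all tested genes) and at least 2-fold higher 2 (4.08%; 21.4% of all). In TMM-scaled CPM (defined below), all LW values lay below all CW values in 12 members (24.5%, beside 14.9% of all tested genes). They lay above in 7 (14.3%, beside 19.7% of all). By FPKM, Zm00001d027511, Zm00001d023437 and Zm00001d030859 among the 12 overlapped. Zm00001d024906 and Zm00001d034887, which overlapped in CPM, lay wholly above in LW by FPKM. The lean to lower values in these counts therefore depended on the scale.

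Among abundant members the values in LW were mostly the lower ones. Of 17 members with a mean of at least 20 FPKM over the 6 libraries, 5 fell, none rose and 16 had a negative log2 fold change. In 11 (64.7%) all LW values lay below all CW values in CPM. By FPKM, Zm00001d027511, Zm00001d023437 and Zm00001d030859 among these 11 overlapped, and Zm00001d034887 lay wholly above in LW. Among the 4735 tested genes of that abundance, 8.13% fell, 59.3% had a negative fold change and 27.2% lay wholly below in LW. The cut was not among the planned settings and averages both groups, so a gene can pass through CW alone. Glycerate kinase passed with 14.3 FPKM in LW and 34.1 in CW. Just under the cut, Zm00001d024906 (24.2 in LW, 15.2 in CW) and Zm00001d039616 (19.8 and 11.1) were higher in LW. The next in rank, Zm00001d023534, was lower (11.3 and 15.4). Summed over the 61 genes, the members held 0.426% ± 0.00991 of LW counts and 0.653% ± 0.0746 of CW counts (SD, n = 3 per group). No library of one group reached a library of the other in this sum, with 0.418% to 0.437% in LW and 0.603% to 0.739% in CW. With 3 values a group no exact test goes under 0.1, so such sums are given without a test.

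**Figure D1:**
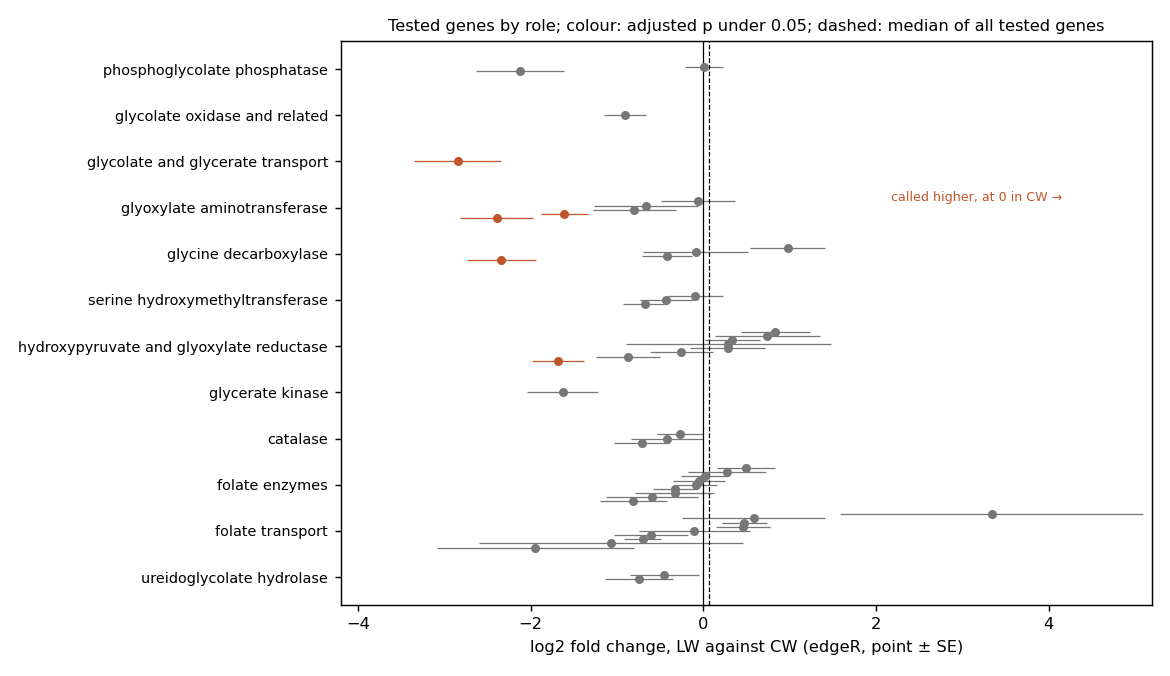
The log2 fold change of LW against CW is drawn for the tested genes by role, as the edgeR estimate ± SE; coloured points passed an adjusted p under 0.05, and the dashed line marks the median of all tested genes at 0.06. The called falls lie in transport, aminotransferase, glycine decarboxylase and reductase roles, whereas catalase and folate roles hold no coloured point; the gene at 0 in CW is marked by text, since it has no finite fold.

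The levels below are CPM values, counts scaled to a common library size with TMM factors, and a comparison between genes uses FPKM. CW replicate 3 stood nearest to LW for the translocator, phosphatase 1A and chloroplast glutamine synthetase, and calls are also given without it. It is singled out because of these same values, and leaving it out widens the folds of such genes by construction. The folds and calls without it are therefore no separate support. Without it 5.21% of all tested genes were called lower and 6.79% higher. With bulk leaf RNA, fewer cells of a type and less RNA per cell cannot be told apart. In CPM, the most abundant gene of each of 8 cycle roles had all LW values below all CW values. Such a gap was seen in 14.9% of all tested genes and 27.2% of those of at least 20 FPKM. Of these 8 leading genes, 4 passed the test. The 8 of 8 holds only with HPR placed among the reductases by hand. By the role words Zm00001d024906 led that role, with overlapping groups and a log2 fold change of 0.34. It also holds only in CPM. By FPKM the groups of the serine hydroxymethyltransferase lead, Zm00001d030859, overlapped (66.9 in LW replicate 2, 63.8 in CW replicate 2). Abundance was ranked over both groups, so a gene could lead its role through its CW level. Catalase, not counted among the 8, had overlapping groups in its most abundant gene, and glycine decarboxylase1, which was not called, was nearly as abundant by mean FPKM as the H1 that stood for its role (230 against 231).

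Phosphoglycolate phosphatase 1A (Zm00001d025747, chromosome 10, 128273093 to 128275437), the chloroplast enzyme that opens the cycle, had 145, 78.7 and 166 CPM in LW replicates 1 to 3 and 609, 841 and 252 in CW replicates 1 to 3. The LW values lay below the CW values, with CW replicate 3 nearest to them. The log2 fold change was -2.12 (SE 0.51) and missed the threshold (adjusted p = 0.0593, edgeR). Without CW replicate 3 the gene fell 5.57-fold (adjusted p = 0.0233, edgeR), and its adjusted p ran from 0.000811 in DESeq2 to 0.172 over the 14 alternatives. The other phosphatase, phosphoglycolate phosphatase 2 (Zm00001d034887), had 37.1 ± 3.57 CPM in LW and 36.9 ± 4.88 in CW, and its log2 fold change was 0.01 (SE 0.22).

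The plastidal glycolate/glycerate translocator 1 (Zm00001d030127, chromosome 1, 107762967 to 107765646) exports glycolate from the chloroplast and brings glycerate back. It had 177, 139 and 94.0 CPM in LW and 1121, 1388 and 440 in CW. All LW libraries lay below all CW libraries, and CW replicate 3 had the lowest CW value. The translocator fell 7.18-fold (log2 fold change -2.84, SE 0.50, adjusted p = 0.0320, edgeR). By FPKM it was the most abundant member in CW, at 389 ± 185, and in LW it ranked 9 of 61, at 69.4 ± 18.7. Without CW replicate 3 the fall was 9.17-fold.

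Glycolate oxidase1 (Zm00001d018810), which makes glyoxylate and hydrogen peroxide in the peroxisome, had 114, 151 and 137 CPM in LW and 246, 281 and 226 in CW. The groups did not overlap, and the log2 fold change of -0.91 (SE 0.24) missed the threshold (adjusted p = 0.0717, edgeR). DESeq2 called it lower (adjusted p = 0.00348), with adjusted p up to 0.224 over its alternatives. Other glycolate oxidases are spelled with a hyphenated word that the selection misses and were added after the values were seen. The most abundant of them, GLO4 (Zm00001d006868), had 151 ± 32.5 CPM in LW and 153 ± 19.5 in CW.

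Serine--glyoxylate aminotransferase passes the amino group of serine to glyoxylate in the peroxisome and yields glycine and hydroxypyruvate. The 5 genes of this name lie on chromosome 1 between 187058938 and 189202544. The most abundant, Zm00001d031349, had 142, 150 and 106 CPM in LW and 439, 1114 and 537 in CW. Its LW values were alike, whereas CW replicate 2 was far above the other CW libraries. The gene fell 5.26-fold (log2 fold change -2.39, SE 0.42, adjusted p = 0.0320, edgeR). Zm00001d031403 had 25.1, 19.6 and 20.9 CPM in LW and 48.4, 79.3 and 72.5 in CW. It fell 3.05-fold with no overlap of groups (log2 fold change -1.61, SE 0.27, adjusted p = 0.0305, edgeR). Zm00001d031364 and Zm00001d031379 had overlapping groups, with at most 12.8 CPM in any library, and Zm00001d031402 had no count. Reads of like copies may be split between these genes, so a single copy's value is uncertain. Their sum does not depend on that split: it was 172, 182 and 134 CPM in LW and 495, 1211 and 626 in CW, of which Zm00001d031349 supplied 79.2% to 92.0%.

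Alanine--glyoxylate aminotransferase 2 homolog 2 (Zm00001d043951, chromosome 3, 214655863 to 214657601) went the other way at a low level. It had 1.02, 1.75 and 1.15 CPM in LW, from 67, 160 and 110 estimated counts, and none in CW. Against a floor of 3 counts in each CW library it was at least 19.9-fold higher in LW (adjusted p = 0.0420, edgeR). A gene with no CW count could enter the test only through its LW level. Its relative homolog 1 (Zm00001d027861) had 16.6 ± 7.00 CPM in LW and 17.3 ± 7.21 in CW.

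Subunits of the glycine decarboxylase complex, which splits glycine in the mitochondrion, differed among themselves. Glycine cleavage protein H1 (Zm00001d023699, chromosome 10, 16081385 to 16082904), the lipoyl-bearing carrier that shuttles the aminomethyl group between the other subunits, had 108, 44.3 and 99.4 CPM in LW and 385, 528 and 361 in CW. Every LW library lay below every CW library, and LW replicate 2 was lowest. H1 fell 5.07-fold (log2 fold change -2.34, SE 0.40, adjusted p = 0.0313, edgeR). Glycine decarboxylase1 (Zm00001d023437), the pyridoxal phosphate subunit that releases carbon dioxide, had 1138, 822 and 831 CPM in LW and 1220, 1139 and 1371 in CW. Those groups lay close to each other, and on the FPKM scale they overlapped, at 224 ± 27.8 in LW and 237 ± 30.6 in CW. The log2 fold change of glycine decarboxylase1 was -0.42 (SE 0.29, adjusted p = 0.424, edgeR).

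A minor H protein, glycine cleavage system H protein 2 (Zm00001d053800), had 13.6, 11.7 and 15.1 CPM in LW and 9.43, 3.26 and 7.85 in CW. Its LW values lay above its CW values, and the log2 fold change of 0.98 (SE 0.43) missed the threshold (adjusted p = 0.218, edgeR). Another H protein 2 gene, Zm00001d015378, had at most 4.53 CPM in any library, and the other 3 of that name had no count. The aminomethyltransferase Zm00001d002258, the folate-dependent subunit of the complex, does not carry a selected word and was added after the values were seen. It had 345, 161 and 293 CPM in LW and 454, 428 and 565 in CW (log2 fold change -0.86, SE 0.34, adjusted p = 0.179, edgeR). A less abundant gene of the same name and also added afterwards, Zm00001d045436, had 8.48, 4.88 and 8.17 CPM in LW and 16.2, 29.2 and 13.9 in CW. Its groups did not overlap, and it missed the threshold (log2 fold change -1.46, SE 0.40, adjusted p = 0.0777, edgeR). Of 8 tested genes for dihydrolipoyl dehydrogenase and lipoate attachment, which include the remaining subunit, none passed the test. At an unadjusted p under 0.05 edgeR placed 1 higher and 0 lower (13.3% and 11.4% of all tested genes).

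Serine hydroxymethyltransferase joins the one-carbon unit from glycine decarboxylase to another glycine to form serine. The most abundant gene (Zm00001d030859) had 138, 142 and 99.6 CPM in LW and 221, 192 and 196 in CW. The groups did not overlap in CPM but did in FPKM, and the log2 fold change was -0.68 (SE 0.24, adjusted p = 0.140, edgeR). Of the isoforms named 7, Zm00001d012247 had 29.0 ± 3.40 CPM in LW and 31.0 ± 11.5 in CW. Zm00001d042661, of the same name, had 19.4 to 26.3 CPM in LW and 24.1 to 44.5 in CW, with overlapping groups.

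The peroxisomal hydroxypyruvate reductase HPR (Zm00001d014919, chromosome 5, 68355566 to 68358484), annotated as glycerate dehydrogenase, makes glycerate with NADH. It had 58.8, 80.2 and 58.5 CPM in LW and 155, 272 and 209 in CW. The highest LW library remained below the lowest CW library, and the gene fell 3.22-fold (log2 fold change -1.69, SE 0.30, adjusted p = 0.0320, edgeR). Reductases of the HPR3 name, which accept hydroxypyruvate and glyoxylate in Arabidopsis, gave no call. Zm00001d024906 had 33.1, 18.8 and 28.4 CPM in LW and 14.9, 25.3 and 23.5 in CW, with overlap. Its neighbour on chromosome 10, Zm00001d024907, had 7.70, 9.22 and 9.79 CPM in LW and 7.38, 3.57 and 4.03 in CW. Those groups did not overlap, and the log2 fold change of 0.83 (SE 0.40) missed the threshold (adjusted p = 0.247, edgeR). The chloroplast glyoxylate/succinic semialdehyde reductase 2 (Zm00001d044267) had 13.2 to 25.7 CPM in LW and 23.1 to 40.7 in CW, again with overlap.

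D-glycerate 3-kinase (Zm00001d035737), which returns glycerate to the Calvin cycle as a phosphate ester, had 16.2, 39.7 and 18.4 CPM in LW and 55.6, 76.8 and 98.1 in CW. All LW values were lower, LW replicate 2 standing closest to CW. Here CW replicate 3 was the highest CW library, and without it the fold shrank from 3.10 to 2.67 (adjusted p = 0.0800, edgeR). The log2 fold change of -1.63 (SE 0.41) missed the threshold (adjusted p = 0.0667, edgeR), and DESeq2 called it lower (adjusted p = 0.00456; up to 0.223 over its alternatives).

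**Figure D2:**
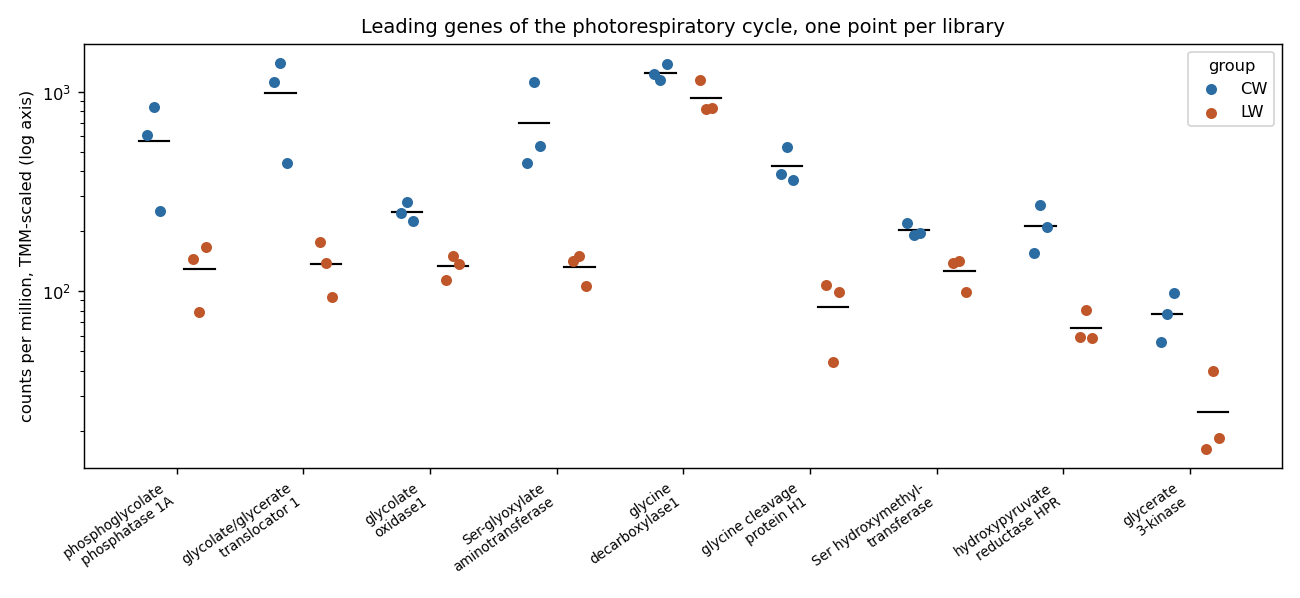
CPM on a log axis is plotted for 9 genes in the order of the cycle, 1 point for each of the 3 CW and 3 LW libraries, with a bar at each group mean. In every gene drawn the LW points lie below the CW points; they run from 94.0 to 177 against 440 to 1388 CPM for the translocator, and the gap is narrow for glycine decarboxylase1, at 822 to 1138 against 1139 to 1371 CPM.

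Catalases, which break down the hydrogen peroxide of glycolate oxidation, included the 2 most abundant members by mean FPKM over the 6 libraries, and none of the 3 was called. At an unadjusted p under 0.05 edgeR placed 0 of them higher and 0 lower (13.3% and 11.4% of all tested genes), and DESeq2 called none (9.48% and 7.61% of all). Catalase isozyme 3 (Zm00001d054044), whose transcript is known to follow the circadian clock in maize, had 271, 803 and 627 CPM in LW and 721, 814 and 742 in CW. LW replicate 1 was far below the rest, and LW replicates 2 and 3 lay at or near the CW level. Catalase isozyme 2 (Zm00001d027511) had 609, 334 and 528 CPM in LW and 782, 729 and 907 in CW (log2 fold change -0.72, SE 0.32, adjusted p = 0.215, edgeR). Catalase isozyme 1 (Zm00001d014848) had 316, 211 and 243 CPM in LW and 286, 277 and 364 in CW, with overlap.

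Among the 14 genes of folate synthesis and interconversion, 9 were tested and none was called, with 0 higher and 0 lower also at an unadjusted p under 0.05 in edgeR and none called by DESeq2, beside the same shares of all genes. Their median log2 fold change was -0.09. Formate tetrahydrofolate ligase (Zm00001d020669), which loads formate onto folate, was the most abundant, with 74.1, 98.4 and 88.3 CPM in LW and 83.3, 113 and 80.4 in CW. The groups overlapped, and its log2 fold change of -0.09 (SE 0.25) changed sign to 0.29 with libraries scaled by totals. A pair of 5-formyltetrahydrofolate cyclo-ligases, which recycle a storage form of folate, had 12.2 to 20.3 CPM in LW and 15.2 to 35.8 in CW for Zm00001d023534, and 14.1 to 22.7 in LW and 9.93 to 18.1 in CW for the mitochondrial Zm00001d006676. Bifunctional dihydrofolate reductase-thymidylate synthase (Zm00001d007318), which links folate to DNA precursors, had 42.4 ± 7.22 CPM in LW and 53.1 ± 10.5 in CW.

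Folate carriers gave no call among 9 tested of 10, and edgeR placed 1 lower and 0 higher at an unadjusted p under 0.05 (11.4% and 13.3% of all tested genes). Folate-biopterin transporter 1 (Zm00001d034424) had 48.1, 38.8 and 48.1 CPM in LW and 77.2, 67.3 and 75.4 in CW, without overlap; its log2 fold change was -0.70 (SE 0.21, adjusted p = 0.0972, edgeR). DESeq2 called it lower (adjusted p = 0.0235). Folate/biopterin transporter Zm00001d019510 had 11.1 and 13.1 CPM in CW replicates 1 and 2, 0.258 in CW replicate 3 and 1.31 to 3.37 in LW. It was called lower when CW replicate 3 was left out (adjusted p = 0.0346, edgeR), as was Zm00001d009180 called higher (adjusted p = 0.0422, edgeR), which then had no CW count and 0.564 to 1.27 CPM in LW. The word glycolate also drew in a pair of ureidoglycolate hydrolases of purine breakdown, which are not part of the cycle. Zm00001d030967 had 75.5 to 149 CPM in LW and 105 to 233 in CW, and Zm00001d042976 had 24.1 to 29.7 in LW and 21.9 to 59.5 in CW, both with overlap.

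Ratios between members within a library do not depend on how libraries are scaled. Among them 8 were computed, and 6 had no overlap of groups; the pairs were chosen after the values were seen, so the exact two-sided permutation tests describe them only. The FPKM of H1 relative to that of glycine decarboxylase1 was 0.436, 0.248 and 0.551 in LW and 1.45, 2.14 and 1.21 in CW. H1 thus exceeded glycine decarboxylase1 in each CW library and not in any LW library (exact permutation p = 0.1, the smallest possible; adjusted over the 8 ratios 0.133). Serine--glyoxylate aminotransferase Zm00001d031349 relative to serine hydroxymethyltransferase Zm00001d030859 was 1.32, 1.35 and 1.37 in LW and 2.55, 7.44 and 3.51 in CW. The LW libraries were nearly equal in that ratio and all lay below CW (exact permutation p = 0.1; adjusted 0.133). Phosphatase 1A relative to phosphatase 2 was 2.75, 1.77 and 3.64 in LW and 12.8, 20.5 and 4.69 in CW, also without overlap. Glycerate kinase relative to HPR did not separate the groups, at 0.404 ± 0.130 in LW and 0.413 ± 0.105 in CW (exact permutation p = 0.9; adjusted 0.900).

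**Figure D3:**
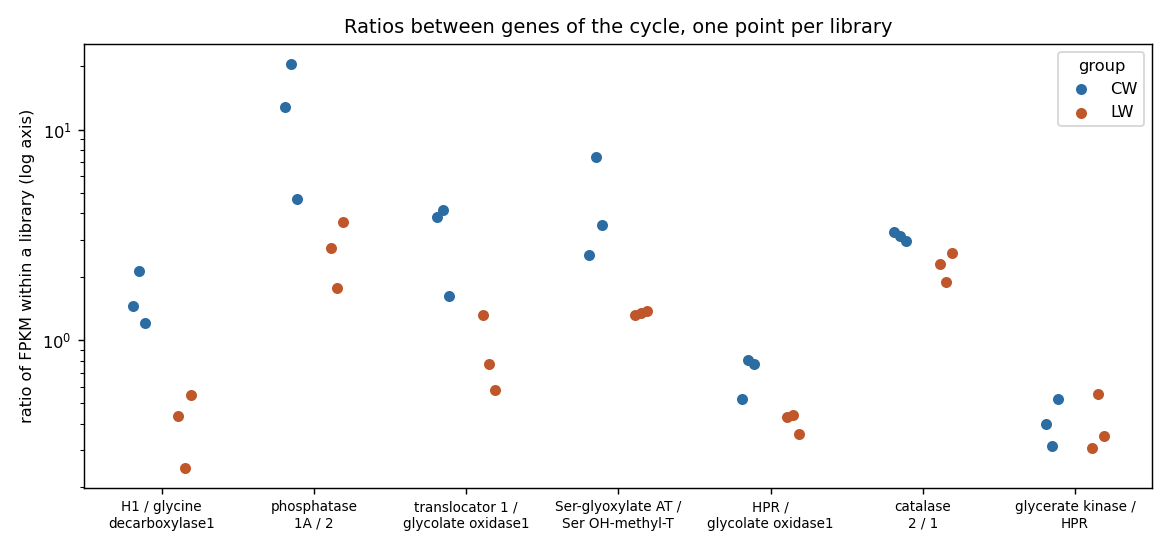
Ratios of FPKM between 2 genes of the same library are plotted on a log axis, 1 point per library, for CW and LW. H1 to glycine decarboxylase1 runs from 1.21 to 2.14 in CW and from 0.248 to 0.551 in LW, while glycerate kinase to HPR overlaps between the groups.

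Most calls did not outlast the loss of 1 library, but the fold changes kept their sign. Calls over all tested genes also became rare in the fits where these calls were lost. The losses were therefore not particular to these members. For Zm00001d030127, Zm00001d031349, Zm00001d023699 and Zm00001d014919 the test was passed with all 6 libraries or with CW replicate 3 left out, and failed when any 1 of the other 5 was dropped. Zm00001d031403 also passed without CW replicate 1. Left-out libraries moved the log2 fold change of the translocator between -3.20 and -2.51 (adjusted p = 0.0170 to 0.144), of Zm00001d031349 between -2.64 and -1.88 (0.0258 to 0.145), of H1 between -2.53 and -2.01 (0.0267 to 0.132), of HPR between -1.87 and -1.47 (0.0312 to 0.146) and of Zm00001d031403 between -1.80 and -1.47 (0.0307 to 0.144), all in edgeR. Dropping CW replicate 3 left 7 members lower and 2 higher, beside 5.21% and 6.79% of all tested genes. Dropping CW replicate 1 left 1 lower (0.283% of all genes), and dropping CW replicate 2 or any LW library left 0 (at most 0.00405%); none was higher in those 5 fits. DESeq2 called 9 lower and 1 higher, against 7.61% and 9.48% of all genes it tested.

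**Figure D4:**
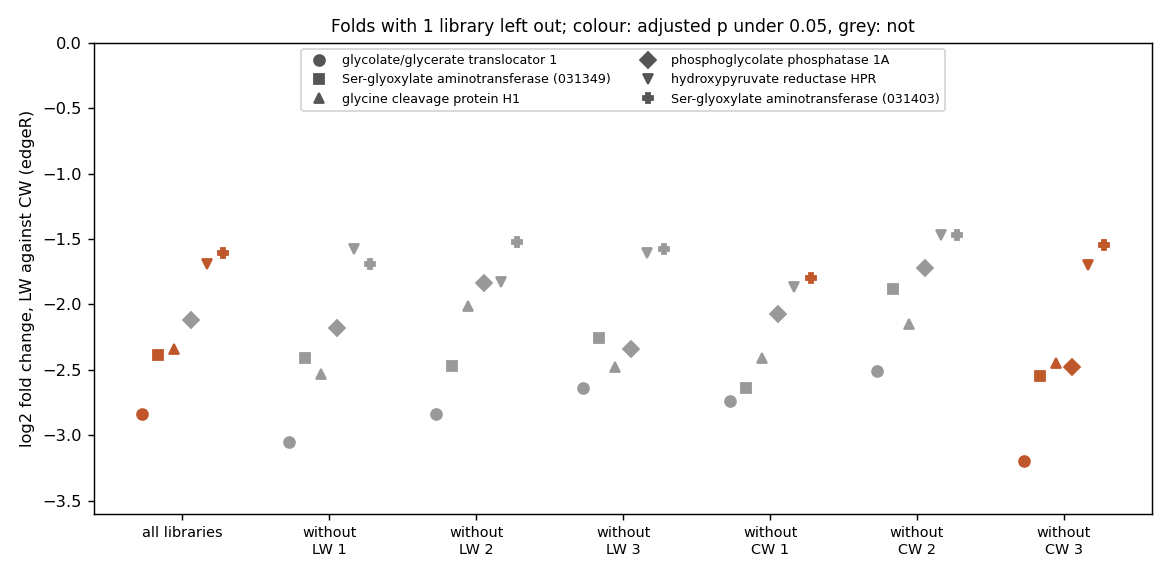
The log2 fold change of LW against CW from edgeR is plotted for 6 genes with all libraries and with each library left out, coloured where the adjusted p was under 0.05 and grey where it was not. All values lie between -3.20 and -1.47, and with a library other than CW replicate 3 left out the 1 coloured point is Zm00001d031403 without CW replicate 1.

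Other genes of the same metabolism were matched by words into 10 lists, without the members. Of 120 such genes tested, 5 rose (4.17%, beside 2.84% of all tested genes) and 8 fell (6.67%, beside 2.40%). Each of these 13 calls was kept when CW replicate 3 was left out, which gave 7 higher and 15 lower, and none was kept when any 1 of the other 5 libraries was left out. The chloroplast glutamine synthetase (Zm00001d026501), which recaptures the ammonia released by glycine decarboxylase, had 28.2, 80.5 and 106 CPM in LW and 653, 801 and 249 in CW. It was the 1 called of 12 tested genes in the list of ammonia reassimilation, which by its words also held folylpolyglutamate synthases, and it fell 7.95-fold with no overlap (adjusted p = 0.0440, edgeR), or 10.2-fold without CW replicate 3. Other glutamine synthetases had higher values in LW without a call: Zm00001d051804 had 331, 255 and 360 CPM in LW and 162, 123 and 93.9 in CW (adjusted p = 0.0516, edgeR), and Zm00001d017958 135, 252 and 209 in LW and 117, 114 and 93.6 in CW (adjusted p = 0.119, edgeR). At an unadjusted p under 0.05 edgeR placed 2 genes of the list higher and 1 lower (13.3% and 11.4% of all tested genes). DESeq2 did the same with its adjusted p (9.48% and 7.61% of all). Ferredoxin-dependent glutamate synthase (Zm00001d022388), its partner in the chloroplast, was not called (log2 fold change -0.81, adjusted p = 0.578, edgeR). Of 13 tested genes with Rubisco names, 3 fell and 0 rose (2.40% and 2.84% of all tested genes). The 3 were small subunits 1 and 2 (Zm00001d052595, 11.6-fold, and Zm00001d004894, 14.1-fold) and activase2 (Zm00001d048593, 4.73-fold), which frees inhibited Rubisco sites (adjusted p = 0.0389, 0.0467 and 0.0424, edgeR). CW replicate 3 stood far below the other CW libraries in both small subunits, at 3503 beside 13040 and 16700 CPM in Zm00001d052595 and at 901 beside 7563 and 8442 in Zm00001d004894; without it their log2 fold changes were -3.96 and -4.32. Of 37 tested peroxisome membrane and biogenesis genes 2 fell and 0 rose (2.40% and 2.84% of all tested genes). They were Zm00001d013795, by 2.57-fold, and Zm00001d027366, by 2.71-fold (adjusted p = 0.0351 and 0.0431, edgeR).

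Serine can also be made from phosphoglycerate in the plastid, and there the called genes lay higher in LW. Of 7 tested genes of this phosphorylated pathway 3 rose and 0 fell (2.84% and 2.40% of all tested genes). All 3 were D-3-phosphoglycerate dehydrogenases, the entry enzyme. Zm00001d002051 had 23.0, 30.0 and 35.7 CPM in LW and 3.86, 5.91 and 8.16 in CW and rose 4.94-fold (adjusted p = 0.0276, edgeR). Zm00001d032114 rose 4.38-fold to 48.4 ± 14.9 CPM (adjusted p = 0.0234, edgeR) and Zm00001d026472 2.18-fold to 42.1 ± 3.06 CPM (adjusted p = 0.0460, edgeR). Another dehydrogenase, Zm00001d046923, stood at 19.3 ± 4.87 CPM in LW and 48.5 ± 20.3 in CW and was not called (adjusted p = 0.0762, edgeR). Of 8 tested genes of the methyl cycle, which takes its methyl group from folate, all had a positive log2 fold change (median 1.5). Over all tested genes 12987 of 24704 were positive. Of the 8, 1 rose: the methionine synthase Zm00001d013644, 6.48-fold from 4.46 ± 2.07 to 28.9 ± 15.3 CPM (adjusted p = 0.0424, edgeR). Its most abundant relative, Zm00001d031128, ran from 1258 to 3407 CPM in LW and from 170 to 1468 in CW, with overlap. S-formylglutathione hydrolase (Zm00001d011891), of the path from formaldehyde to formate, fell 2.37-fold, from 81.7 ± 2.22 to 34.5 ± 2.56 CPM (adjusted p = 0.0299, edgeR), the 1 called of 10 tested formate genes. Malate dehydrogenases, which supply the reductant for hydroxypyruvate in the peroxisome and serve many other paths, went both ways among 15 tested, 3 of which are isopropylmalate dehydrogenases of leucine synthesis that the words drew in: Zm00001d044042 rose 2.27-fold and the chloroplast Zm00001d022229 fell 6.56-fold. Aminotransferases other than those above, dicarboxylate carriers and lipoate genes, with 7, 3 and 8 tested, had no call with edgeR. At an unadjusted p under 0.05 edgeR placed 2, 2 and 1 of them higher and 0 lower (13.3% and 11.4% of all tested genes). DESeq2 called 0, 1 and 1 higher and 0 lower (9.48% and 7.61% of all). None of the 3 tested carriers is annotated to the plastid, and the 2 chloroplast dicarboxylate transporters had no count.

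Markers of leaf cell types were read beside these results. The 11 bundle sheath markers, 7 of them tested, summed to 3519 to 5480 CPM in LW and 9494 to 32719 in CW; without Rubisco small subunits, the other 9 summed to 4168, 2625 and 2383 CPM in LW and 5007, 7582 and 5090 in CW. Phosphoenolpyruvate carboxykinase1 (Zm00001d028471) made up most of that sum, and without it the other 8 overlapped, at 424 to 593 CPM in LW and 382 to 571 in CW. Of the 7 tested bundle sheath markers, edgeR called 2 lower, the Rubisco small subunits, and 0 higher (2.40% and 2.84% of all tested genes). At an unadjusted p under 0.05 it placed 3 lower and 2 higher (11.4% and 13.3% of all). DESeq2 called 3 of the list lower and 1 higher (7.61% and 9.48% of all). The 22 mesophyll markers summed to 3924, 9237 and 4105 CPM in LW and 6685 to 9386 in CW, so the sums overlapped through LW replicate 2. Of 19 tested, 1 fell and 0 rose: pyruvate orthophosphate dikinase2 (Zm00001d010321), 7.61-fold, from 219 ± 21.3 to 28.8 ± 8.44 CPM (adjusted p = 0.0192, edgeR). The more abundant dikinase1 (Zm00001d038163) was not called, at 2993 ± 1175 CPM in LW and 4774 ± 1408 in CW (adjusted p = 0.382, edgeR). Phosphoenolpyruvate carboxylase1 (Zm00001d046170) had the higher mean in LW, at 1690 ± 1656 CPM against 1458 ± 432 in CW (adjusted p = 0.882, edgeR). Of the mesophyll markers DESeq2 called 3 lower and 2 higher, beside 7.61% and 9.48% of all genes it tested. The words also drew in carbonic anhydrases annotated to the mitochondrion. Senescence-named genes, 7 tested of 19, summed to 245 to 305 CPM in LW and 669 to 888 in CW. The tested genes were split, with 3 positive and 4 negative log2 fold changes. Of them 1 fell and 0 rose, and 2 lay wholly below in LW (14.9% of all tested genes). DESeq2 called 3 lower and 0 higher. Of 18 zein genes of seed, 15 had no count. Markers of dividing cells summed to 1490 to 1994 CPM in LW and 1115 to 2776 in CW, most of it from knotted1 induced1 (Zm00001d022630). Of the 13 tested, 11 had a positive log2 fold change (median 0.83), beside 12987 of all 24704 tested genes. In 6 all LW values lay above all CW values (19.7% of all tested genes). None was called in edgeR or DESeq2. In edgeR 1 was higher and 1 lower at an unadjusted p under 0.05 (13.3% and 11.4% of all). The part of cell type in the results above was not tested.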

How the data were processed

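The authors deposited 1 table with FPKM values and estimated counts for 45953 features in 6 leaf libraries. FastQC 0.10.1, HISAT2 2.0, StringTie 1.3.4 and edgeR are named without roles, per the submitters' processing notes; no source used here gives the build, annotation or strand setting, so coordinates are those of the table. The deposited counts are whole but hold too many multiples of 4 among values from 1 to 40 (28.6% to 31.4%), so they were read as estimated counts, and no counting interval is given. Totals ran from 62327457 to 84084375 in LW and from 42927751 to 64067543 in CW. Gene names are the deposited ones.

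edgeR 4.0.16 (R 4.3.3) was run on the counts with TMM, filterByExpr, glmQLFit and glmQLFTest, group only, on all 24704 kept genes; an SE is the log2 fold change divided by the square root of F. limma 3.58.1 on log2(FPKM + 1) and DESeq2 1.42.0 were alternatives, and the fit was tested on simulated data. The labels do not say that replicates came from separate plants, so a p-value covers only how much these libraries vary. For CW replicate 2 the title was followed, since its source name is numbered 3. Members and lists were chosen with earlier results of these data known. Named genes were every called member, the most abundant of each role, and the 3 largest rises and falls whose higher group averaged 1 FPKM or more; other members were named after their values were seen. Folate carriers, HPR and ureidoglycolate hydrolases were placed in roles by hand, since the role words put them elsewhere.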

Additional observations from a re-analysis of the deposited data

How the results depend on the processing

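With relative log expression factors, totals scaling, no filter on low counts, a minimum mean of 1 FPKM, either limma fit, the cycle names without catalase and folate, or the genes spelled otherwise (chosen after seeing the data), the counts of members that fell and rose were 5 and 1, as reported. DESeq2 and an adjusted p under 0.1 each gave 9 lower and 1 higher. Leaving out 1 library gave 0 to 7 lower and 0 to 2 higher, and among the 120 other pathway genes 0 to 15 lower and 0 to 7 higher (chosen after seeing the data). The labels share replicate numbers between groups, but same-numbered libraries did not deviate together (correlations of -0.035, -0.002 and -0.251), so the numbers were not taken as pairs; with the replicate block 0 members were lower and 0 higher. The members' median turned from -0.33 to 0.03 scaled by totals, and to 0.03 in limma on log2(FPKM + 1) and on log2(FPKM + 0.1), where the median of all genes was 0.42, 0.27 and 0.45. The log2 fold change of formate tetrahydrofolate ligase (Zm00001d020669) turned to 0.29 scaled by totals, 0.26 and 0.27 in limma with pseudocounts 1 and 0.1, and ran from -0.18 to 0.09 with 1 library left out (0.05 without LW replicate 1). Of 210 values of the 15 named genes under alternatives, 166 kept direction and call, 35 lost the call, 4 gained it and 5 changed sign; the cause was not tested.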
